A study of Mus musculus with 24 samples.

Results

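The circadian clock genes of optogenetically paced muscle were described from 10 genes chosen by name, namely Per1, Per2, Per3, Cry1, Cry2, Nr1d1, Nr1d2, Dbp, Tef, and Clock, out of 56941 genes in the deposited tables. All 10 passed the filter on low counts and were among the 13318 genes tested. Bulk RNA sequencing was performed on muscle grown from C2C12, a mouse myoblast line that fuses into contracting myotubes, on a fibrin hydrogel. The cells of every group, control included, carried ChR2::tdTomato, a light-gated channel with a red fluorescent tag, so that a pulse of blue light triggered contraction. Light was applied for 30 min daily at a frequency of 1, 4, or 10 Hz, control tissues had no light, and RNA was taken once from 6 tissues per condition. All tissues came from 1 engineered line, and the sources used here do not give the interval between the last light session and RNA extraction.

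The clock is a transcriptional loop. CLOCK pairs with BMAL1 (the product of Arntl) and binds E-boxes to activate the Per and Cry genes, whose proteins return to the nucleus and repress the pair. A second arm consists of the REV-ERB nuclear receptors (Nr1d1, Nr1d2), which repress Arntl at ROR elements, and another of the PAR bZIP factors DBP and TEF, which activate genes at D-boxes. The loop runs in skeletal muscle fibers, where it sets the daily timing of many metabolic genes, and in cultured cells its phase can be set by a change of medium. The authors changed the medium daily, shortly before the light session. A sample taken at a single time gives a level of each gene, not its rhythm.

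The libraries held 4.09 to 15.2 M (mega) counts, and the lowest count of any clock gene in any library was 71 (Per3), at which counting error alone gives a coefficient of variation of 11.9%. Totals were 4.2 to 7.65 M in control, 4.09 to 15.2 M at 1 Hz, 7.55 to 11.5 M at 4 Hz, and 5.41 to 12.1 M at 10 Hz. Their means were higher than in control at 4 and 10 Hz (exact permutation p = 0.00433 and 0.0444). At 1 Hz the exact permutation p was 0.183. The sum of 8 myotube markers was 6356 to 8618 counts per M of the TMM-scaled total (CPM) in control and 7151 to 11100 CPM at 10 Hz, and did not overlap control at 1 Hz (10090 to 14330 CPM) or 4 Hz (10490 to 16750 CPM), with 5, 6, and 3 of the 8 counted as higher at 1, 4, and 10 Hz. Of 9 markers of endothelial, immune, fat, epithelial, and neuronal cells, 8 were too low to test. The remaining one, Cd68, is a lysosomal gene that was detected in every library. The level of 19 non-polyadenylated small RNAs, which varies with library preparation, was summed as counts per M of the unscaled total. It was 96.3 to 167 in control, 14.5 to 69.8 at 1 Hz, 17.2 to 49.7 at 4 Hz, and 36.8 to 271 at 10 Hz. It therefore separated control from 1 Hz and from 4 Hz completely (exact permutation p = 0.00216 for each, the smallest that 6 against 6 libraries allow), and for these comparisons it and stimulation cannot be told apart. Low-input samples were ribodepleted by the authors and are not named in the labels, so whether the small RNA level marks them was not tested, and a difference in library preparation cannot be told apart from stimulation at 1 and 4 Hz either. In these bulk samples fewer cells of a type and less RNA per cell cannot be told apart.

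All clock genes were expressed without stimulation. Levels were compared between genes as deposited TPM, which are per transcript length. Tef had the highest median in control, 82.5 TPM (69.7 to 112, n = 6), and its range did not overlap that of any other member. Per1 (44.1 TPM), Dbp (41.7 TPM), Nr1d2 (33.0 TPM), Nr1d1 (30.7 TPM), Cry2 (21.9 TPM), Cry1 (17.7 TPM), and Clock (16.4 TPM) followed, and each of these overlapped the range of its neighbor. Per3 (6.24 TPM) and Per2 (5.77 TPM, 4.80 to 14.5) were lowest and overlapped each other, and the range of Per3 lay below that of Clock. In all 3 stimulated groups the order of the lowest pair was exchanged. At 1 Hz, Per2 (7.22 to 13.6 TPM) lay above Per3 (5.26 to 6.76 TPM) in every library. The same held at 4 Hz, with Per2 at 6.42 to 9.41 TPM and Per3 at 4.0 to 5.4 TPM. At 10 Hz the medians were 5.27 and 4.73 TPM, and the ranges overlapped. At 4 Hz Nr1d2 (37.8 to 52.0 TPM) lay above Nr1d1 (18.4 to 26.1 TPM) in every library, whereas the ranges of this pair overlapped in control. The TPM of Nr1d1 per CPM was 0.481 to 0.524 at 4 Hz and 0.534 to 0.608 in control, without overlap. This ratio was also lower at 4 Hz without overlap for Per1, Per2, and Cry2, and the share over all genes was not computed. The CPM here use TMM-scaled totals, unlike the TPM, and the part of this scaling in the ratio was not tested.

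**Figure D1:**
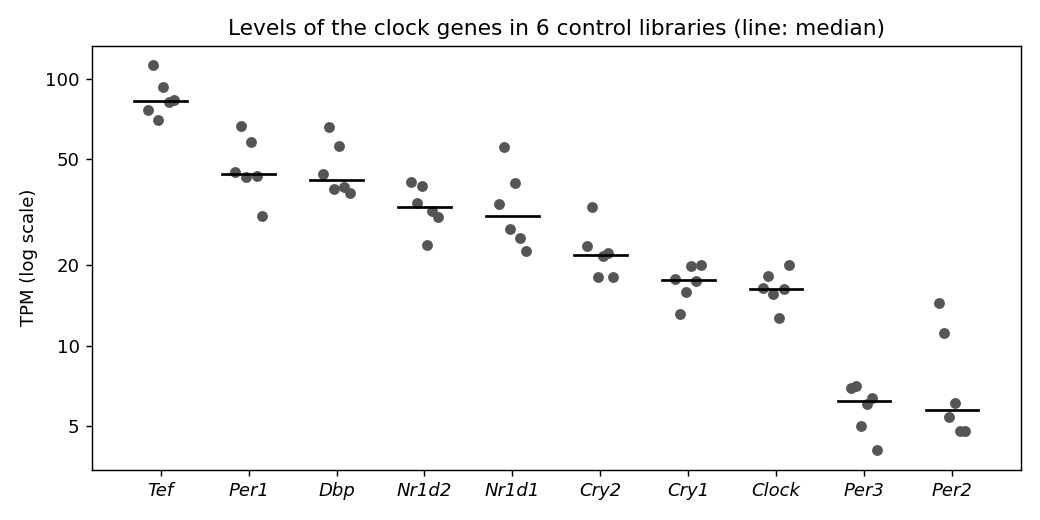
TPM (log scale) of the 10 clock genes in the 6 control libraries, ordered by median. Points are libraries and lines are medians. Tef, at a median of 82.5 TPM, lies above all others, and Per3 and Per2 lie lowest at 6.24 and 5.77 TPM.

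The first question was which clock genes differed between stimulated and control tissues. A gene was counted as changed at an edgeR adjusted p below 0.05, taken over all genes tested, with an absolute log2 fold change above 0.5. At 1 Hz, Per2 was upregulated and the other 9 were not counted. At 4 Hz, Per2 and Nr1d2 were upregulated and the other 8 were not counted. At 10 Hz none of the 10 was counted by edgeR or by DESeq2. An unadjusted edgeR p below 0.05 was found at 10 Hz for 5 of the 10, and for 2750 of all 13318 genes tested. Across all genes tested, 18.3%, 20.1%, and 1.86% were counted at 1, 4, and 10 Hz, so the shares of the clock genes that were counted were near this background.

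Per2, a repressor that also responds acutely to cellular signals, rose at 1 and 4 Hz. Its normalized count was 18.4, 22.1, and 40.8 CPM in control (lowest, median, highest of 6), 28.8, 45.3, and 56.5 CPM at 1 Hz, 27.1, 34.7, and 43.1 CPM at 4 Hz, and 18.1, 21.9, and 29.3 CPM at 10 Hz. A single control library, replicate 2, was at 40.8 CPM and the next at 23.8 CPM, so the other 5 control libraries lay below every library at 1 and 4 Hz. The fold change against control on the log2 scale was 0.85 ± 0.17 at 1 Hz (SE, edgeR adjusted p = 0.000452), 0.52 ± 0.17 at 4 Hz (adjusted p = 0.0170), and -0.10 ± 0.17 at 10 Hz (adjusted p = 0.793). Without control replicate 2 these values were 1.06, 0.74, and 0.11, the last with the opposite sign. The 4 Hz value was close to the fold threshold, and leaving out any of 6 libraries (control replicates 1, 3, 5, or 6 or 4 Hz replicates 4 or 6) brought it to between 0.46 and 0.50 with an adjusted p still below 0.05. With the small RNA share as a covariate, neither was counted (0.20, edgeR adjusted p = 0.827 at 1 Hz, and -0.11, adjusted p = 0.848 at 4 Hz), in a fit that left 1 of all 13318 genes counted at 1 Hz and 250 at 4 Hz.

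The other PER and CRY genes moved less. Per1, the other acutely inducible repressor, was at 79.5, 117, and 162 CPM in control (lowest, median, highest of 6), 116, 171, and 193 CPM at 1 Hz, 109, 127, and 178 CPM at 4 Hz, and 78.1, 87.9, and 122 CPM at 10 Hz. All conditions overlapped control, and the log2 fold changes of 0.37 ± 0.16, 0.16 ± 0.16, and -0.36 ± 0.16 (SE) were not counted at 1, 4, or 10 Hz (edgeR adjusted p = 0.0652, 0.437, and 0.184). Per3, whose product is a weaker repressor, averaged 20.4 ± 3.73 CPM in 6 control libraries (SD), 20.0 ± 1.89 CPM at 1 Hz, 16.6 ± 0.951 CPM at 4 Hz, and 16.4 ± 2.99 CPM at 10 Hz. Its log2 fold change at 4 Hz was -0.30 ± 0.12 (SE, edgeR adjusted p = 0.0482), short of the fold threshold. Cry1 and Cry2, which encode the cryptochromes that carry most of the repression, had log2 fold changes between -0.25 and 0.21 in the 3 comparisons with control, and neither was counted.

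**Figure D2:**
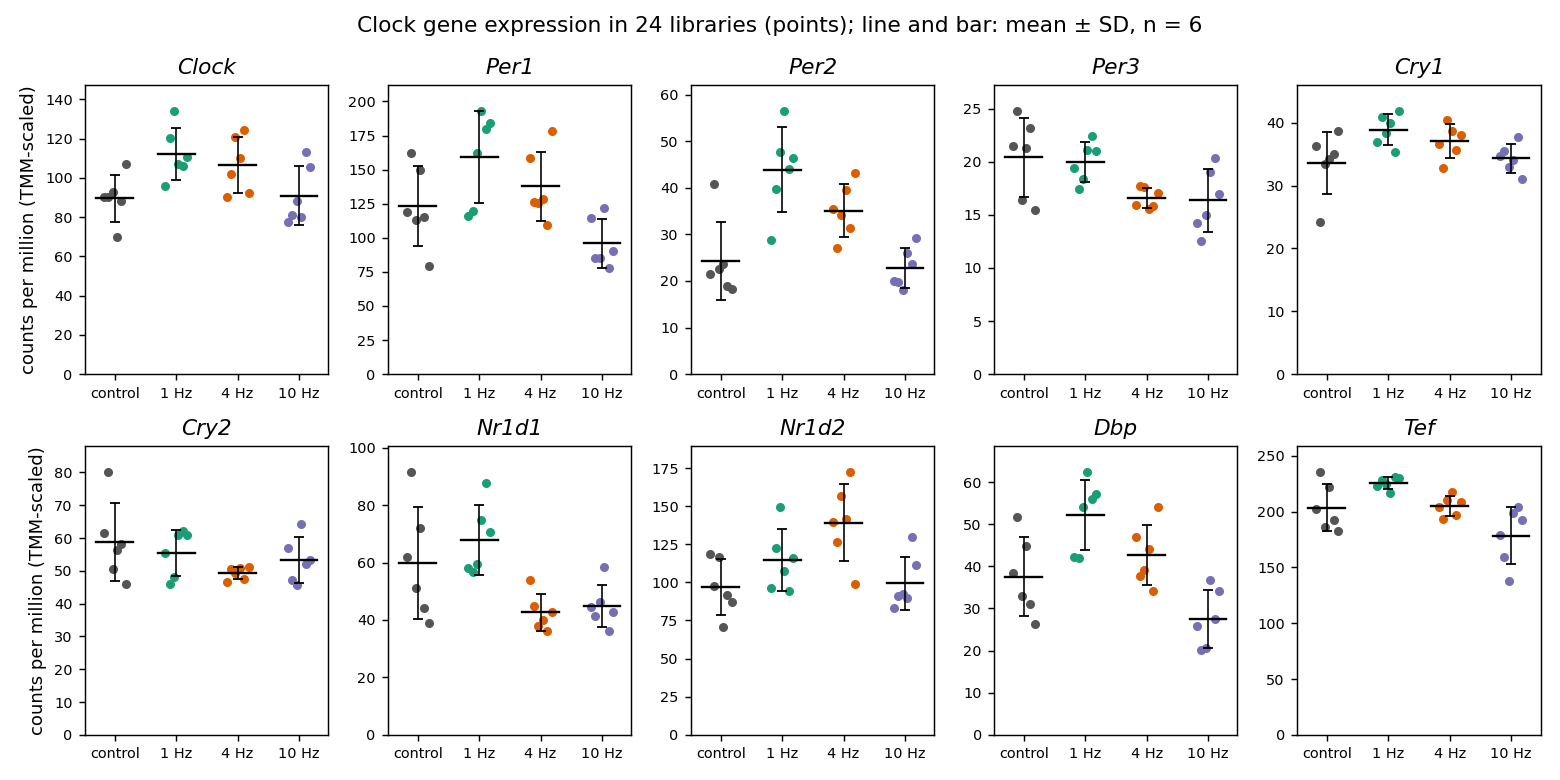
CPM of each clock gene in the 24 libraries (points), with the mean (line) and SD (bar) of 6 libraries per condition and axes starting at 0. Per2 averages 24.4 CPM in control, 43.9 CPM at 1 Hz, 35.1 CPM at 4 Hz, and 22.8 CPM at 10 Hz, and a single control point stands at 40.8 CPM.

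The REV-ERB pair split at 4 Hz. Nr1d2 (REV-ERB beta) was at 70.5, 94.8, and 119 CPM in control (lowest, median, highest of 6) and 98.8, 141, and 172 CPM at 4 Hz, where 5 of 6 libraries lay above every control library, and it rose by 0.52 ± 0.14 on the log2 scale (SE, adjusted p = 0.00441 by edgeR). Nr1d1 (REV-ERB alpha) was at 39.0, 56.5, and 91.5 CPM in control and 36.2, 41.4, and 54.0 CPM at 4 Hz, with a fold change of -0.50 ± 0.16 on the log2 scale (SE, adjusted p = 0.0148 by edgeR) that fell just inside the fold threshold and was not counted. Within a library, the log2 ratio of Nr1d1 to Nr1d2 counts was -1.19 to 0.03 in control and -2.25 to -1.20 at 4 Hz, so the groups did not overlap, while 1 Hz (-1.33 to -0.11) and 10 Hz (-1.84 to -0.62) overlapped control. This ratio was chosen after the values were seen and is given with no test. Without control replicate 2, which had the highest Nr1d1, the Nr1d1 value at 4 Hz was -0.33 (edgeR adjusted p = 0.0777). The Nr1d2 value fell to 0.44 to 0.49, below the fold threshold, without control replicates 4 or 6 or 4 Hz replicates 3 or 5. It was 0.22 (edgeR adjusted p = 0.628) with the small RNA share as a covariate and 0.43 with total count scaling, and was not counted in either. At 1 and 10 Hz, Nr1d2 had log2 fold changes of 0.24 and 0.03 and Nr1d1 of 0.18 and -0.42, none of them counted.

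Of the exon bases of Nr1d1, 52.3% are shared with Thra, a thyroid hormone receptor gene on the opposite strand, and the use of strand in the authors' counting is not given in the sources used here, so reads of this pair may have been exchanged. Thra itself had log2 fold changes of 0.36 ± 0.13 at 1 Hz (SE, edgeR adjusted p = 0.0285), 0.19 ± 0.12 at 4 Hz (adjusted p = 0.235), and -0.61 ± 0.12 for 10 Hz against 1 Hz (adjusted p = 0.000516). Thra and Nr1d1 had opposite signs at 4 Hz, and also between 10 Hz and 4 Hz (-0.44 for Thra, 0.08 for Nr1d1). Relative to control they shared a sign at 1 Hz and at 10 Hz, as they did between 4 Hz and 1 Hz. Between 10 Hz and 1 Hz, where Nr1d1 was counted, its value of -0.60 was close to that of Thra. The part of exchanged reads in these values was not tested. Smaller shares of exon bases lie on the strand opposite another protein-coding gene in Dbp (15.5%, Sphk2) and Clock (11.9%, Tmem165), and the lowest edgeR adjusted p of either partner in the 6 comparisons was 0.143.

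Dbp and Tef encode the D-box activators, and Dbp is a direct target of CLOCK and BMAL1. Dbp was at 26.3, 35.7, and 51.7 CPM in control (lowest, median, highest of 6), 42.1, 54.9, and 62.4 CPM at 1 Hz, 34.1, 41.6, and 54.1 CPM at 4 Hz, and 20.1, 26.7, and 36.8 CPM at 10 Hz. It was highest at 1 Hz and lowest at 10 Hz, with control between them and overlapping both. The log2 fold change against control was 0.48 ± 0.16 at 1 Hz (SE, edgeR adjusted p = 0.0205), short of the fold threshold, 0.18 ± 0.16 at 4 Hz (adjusted p = 0.380), and -0.46 ± 0.16 at 10 Hz (adjusted p = 0.0955). Without control replicate 2 the 1 Hz value was 0.59 (edgeR adjusted p = 0.00633) and was counted. Tef was steady between libraries, with a mean of 204 ± 21.1 CPM in 6 control libraries (SD), 226 ± 5.32 CPM at 1 Hz, 205 ± 8.85 CPM at 4 Hz, and 179 ± 25.5 CPM at 10 Hz, and was not counted in any comparison with control.

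Clock, the activating partner of BMAL1, was at 69.6, 90.1, and 107 CPM in control (lowest, median, highest of 6), 95.8, 109, and 134 CPM at 1 Hz, 90.0, 106, and 124 CPM at 4 Hz, and 77.3, 84.7, and 113 CPM at 10 Hz. At 1 Hz, 3 of 6 libraries lay above every control library, and the value of 0.33 ± 0.11 on the log2 scale (SE, adjusted p = 0.0221 by edgeR) was below the fold threshold. At an adjusted p below 0.05 alone, 3 clock genes (Per2, Dbp, Clock) were higher at 1 Hz, 2 were higher (Per2, Nr1d2) and 2 lower (Per3, Nr1d1) at 4 Hz, and 0 differed at 10 Hz, where 35.4%, 39.4%, and 4.89% of all genes tested did.

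The second question was whether the frequencies differed from each other. The clearest separation was between 10 Hz and 1 Hz, where Per1, Per2, Nr1d1, and Dbp were all lower at 10 Hz and none of the 10 was counted as higher, against 17.9% of all genes tested in either direction. The log2 fold change was -0.95 ± 0.17 for Per2 (SE, edgeR adjusted p = 0.000109) and -0.94 ± 0.16 for Dbp (adjusted p = 7.23e-05), whose 6 libraries at 10 Hz all lay below the 6 at 1 Hz. It was -0.73 ± 0.16 for Per1 (SE, edgeR adjusted p = 0.000733) and -0.60 ± 0.16 for Nr1d1 (adjusted p = 0.00441). Leaving out any library in turn left all 4 counted. The median over the 10 clock genes was -0.32, and 0.01 over all genes tested. At an adjusted p alone, 7 of the 10 were lower, where 36.3% of all genes tested differed. Tef was among the additional 3 and did not overlap between the conditions, at 138 to 204 CPM and 217 to 231 CPM (log2 fold change -0.34 ± 0.08, SE, edgeR adjusted p = 0.00201), and Per3 and Clock were the others.

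Against 4 Hz, Per1, Per2, and Dbp were lower at 10 Hz, by log2 fold changes of -0.52 ± 0.16, -0.63 ± 0.17, and -0.64 ± 0.16 (SE, edgeR adjusted p = 0.0177, 0.00909, and 0.00544), where 11.0% of all genes were counted. Nr1d2 was just inside the fold threshold at -0.49 ± 0.14 (SE, edgeR adjusted p = 0.0126), so that 4 of 10 differed at an adjusted p alone, where 22.8% of all genes did. The Per1 value dropped below the fold threshold, to between -0.48 and -0.45, without any of 4 Hz replicates 1 or 6 or 10 Hz replicates 2, 3, or 5 (edgeR adjusted p between 0.0373 and 0.0466). Between 4 Hz and 1 Hz only Nr1d1 was counted, at 36.2 to 54.0 CPM and 56.6 to 87.6 CPM without overlap (log2 fold change -0.67 ± 0.16, SE, edgeR adjusted p = 0.00630), and it was also the only one at an adjusted p alone, where 3.00% and 12.3% of all genes tested were. These comparisons share libraries with each other and with those against control. The small RNA share differed here too, with means of 123 counts per M at 10 Hz, 29.2 at 1 Hz, and 26.2 at 4 Hz. The range at 10 Hz overlapped both of the others. With the small RNA share as a covariate, 0 clock genes were counted between 10 Hz and 1 Hz, where 257 of all genes tested still were, and 0 between 10 Hz and 4 Hz, where 0 of all genes tested were.

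**Figure D3:**
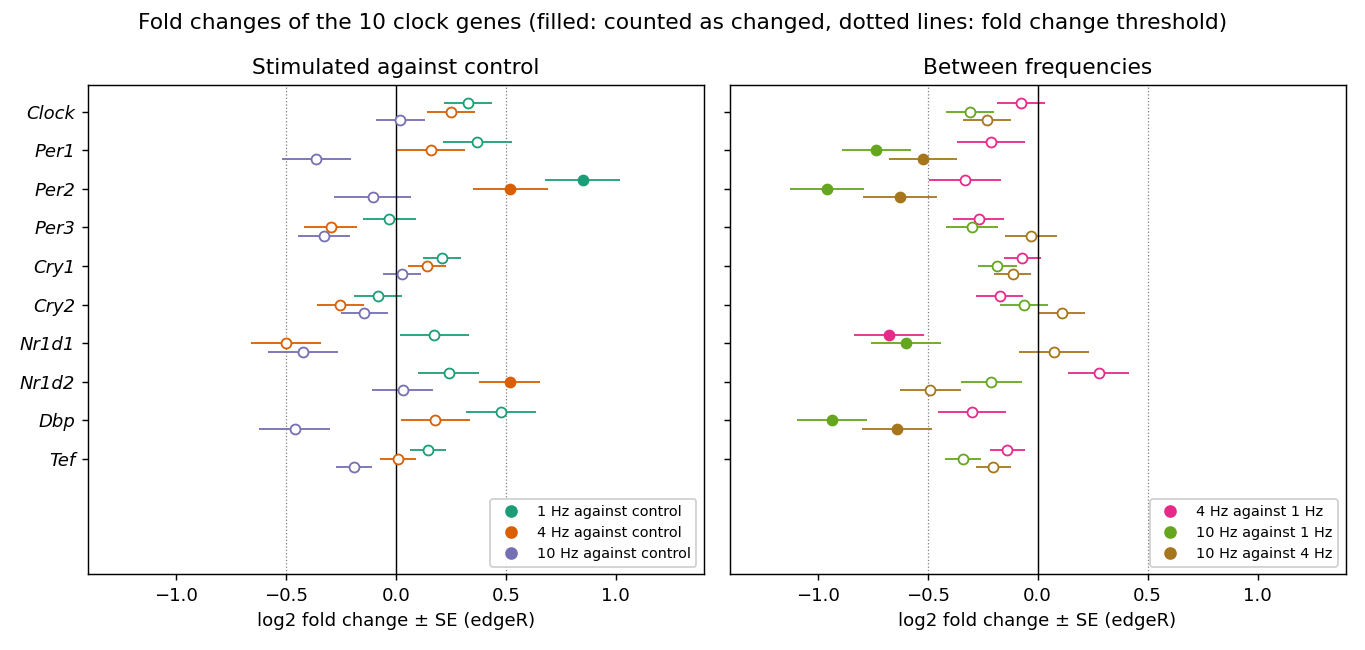
Log2 fold change ± SE (edgeR) of each clock gene against control (left) and between frequencies (right). Filled points are counted as changed and dotted lines mark the fold change threshold of 0.5 in either direction. Per2 is filled at 1 and 4 Hz against control (0.85 and 0.52), and Per1, Per2, Nr1d1, and Dbp are filled for 10 Hz against 1 Hz.

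The promoters of the 4 genes that were counted as lower at 10 Hz than at 1 Hz are shown, with matches to short E-box, D-box, and ROR element sequences marked. Each sequence is the 250 bases before the start of the canonical transcript, read from the GRCm39 genome with GENCODE M39, 5′ to 3′ on the strand of the gene. Capitals mark an E-box (CACGTG, Per1), a D-box (TTATGTAA, Per2), ROR element cores (TGGGTCA and TAGGTCA, Dbp), and the E-prime box CACGTT, read on the other strand, in Nr1d1. The regions are chr11:68989018-68989267 (plus strand, Per1), chr1:91387047-91387296 (minus strand, Per2), chr7:45354262-45354511 (plus strand, Dbp), and chr11:98666160-98666409 (minus strand, Nr1d1), all on GRCm39.
Per1: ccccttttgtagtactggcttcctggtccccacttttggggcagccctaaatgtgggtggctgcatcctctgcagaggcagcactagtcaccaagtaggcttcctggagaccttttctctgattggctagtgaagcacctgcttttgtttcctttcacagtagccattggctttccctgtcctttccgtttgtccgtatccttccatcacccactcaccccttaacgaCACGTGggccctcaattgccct
Per2: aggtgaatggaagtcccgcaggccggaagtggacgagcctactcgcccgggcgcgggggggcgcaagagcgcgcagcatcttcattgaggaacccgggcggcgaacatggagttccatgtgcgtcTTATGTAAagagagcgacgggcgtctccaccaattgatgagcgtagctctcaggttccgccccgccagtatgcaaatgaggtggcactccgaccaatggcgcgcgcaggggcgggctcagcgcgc
Dbp: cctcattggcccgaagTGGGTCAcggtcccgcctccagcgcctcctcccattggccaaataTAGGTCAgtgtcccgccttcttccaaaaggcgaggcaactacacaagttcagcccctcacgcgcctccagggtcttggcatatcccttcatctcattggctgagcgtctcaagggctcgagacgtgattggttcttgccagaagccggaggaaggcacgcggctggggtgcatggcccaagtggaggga
Nr1d1: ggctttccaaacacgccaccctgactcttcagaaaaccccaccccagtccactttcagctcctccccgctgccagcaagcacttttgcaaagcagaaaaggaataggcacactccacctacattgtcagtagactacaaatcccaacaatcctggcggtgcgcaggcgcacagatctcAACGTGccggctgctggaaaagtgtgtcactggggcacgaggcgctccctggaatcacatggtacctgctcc

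The E-box of Per1 began 22 bases before the start and the D-box of Per2 125 bases before it. The ROR element cores of Dbp began 234 and 189 bases before its start and the E-prime box of Nr1d1 72 bases before. Among 21770 promoters of protein-coding genes of the same length, searched on both strands, 6.26% held CACGTG, 4.16% CACGTT, 0.937% TTATGTAA or TTACGTAA, and 5.27% TAGGTCA or TGGGTCA. Among the clock genes, CACGTG was found in Per1, Cry1, and Tef, CACGTT in Cry1, Cry2, and Nr1d1, the D-box in Per2 and Per3, and the ROR core in Dbp. The 4 genes shown shared none of these motifs in this window. The cAMP response element TGACGTCA, in 1.69% of the promoters, was in none of the 10. These matches describe the letters of the window and not binding.

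Libraries of the same condition differed from each other more at some clock genes than at most genes. The SD of log2 CPM among libraries, after the mean of each condition was removed, was 0.32 for Per2, 0.30 for Per1, Nr1d1, and Dbp, 0.26 for Nr1d2, 0.20 for Per3 and Clock, 0.19 for Cry2, and 0.14 for Cry1 and Tef. The median over 9290 genes of at least 10 CPM was 0.19, and 91.2% to 93.3% of these genes had a smaller SD than Per1, Per2, Nr1d1, or Dbp. These SDs were not corrected for the GC content of transcripts, and the 9290 genes were not matched to the clock genes for level. The part of base composition in this spread was not tested. Within a library, the log2 ratio of Dbp to Arntl counts ranged from 0.75 to 2.34 in control, 1.06 to 1.98 at 1 Hz, 1.37 to 2.40 at 4 Hz, and 0.24 to 2.17 at 10 Hz, so all stimulated groups overlapped control. The ratio of Nr1d1 to Arntl likewise overlapped, with means of 2.14, 2.06, 2.01, and 1.96 on the log2 scale in control and at 1, 4, and 10 Hz.

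Several clock genes rose and fell together among libraries of the same condition. Correlations were computed over the 24 libraries on log2 CPM with condition means removed, for all 45 pairs of the 10 genes, with permutation of libraries within conditions. Dbp and Per2 were the most alike of the pairs with Dbp (Pearson r = 0.84, adjusted p = 0.00045, Spearman rho = 0.85, adjusted p = 0.000225, both with a permutation p of 1e-05, the smallest that 100000 permutations give). The relation held in each condition (r = 0.86, 0.86, 0.82, and 0.91 in control and at 1, 4, and 10 Hz) and without the 2 libraries farthest from the median of Dbp (r = 0.84). Dbp also correlated with Per1 (r = 0.83, permutation p = 3e-05, adjusted p = 0.00045, rho = 0.87, permutation p = 1e-05), with r = 0.95, 0.99, 0.96, and 0.51 in control and at 1, 4, and 10 Hz and 0.80 without the 2 farthest libraries. Of the 45 pairs, 20 had a permutation p below 0.05 after adjustment, 17 with a positive and 3 with a negative r. The share over pairs of all genes tested was not computed, so whether this count is particular to clock genes was not tested. Nr1d2 and Clock formed a pair of their own, with r = 0.78 (rho = 0.76, permutation p = 7e-05 and 0.00013, adjusted p = 0.000788 and 0.00146, 0.72 without the 2 farthest libraries), while Dbp and Nr1d2 had r = -0.12 (permutation p = 0.600, adjusted p = 0.711, rho = -0.10, permutation p = 0.667).

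Base composition moved with this grouping. The transcripts of Clock and Nr1d2 are 41.5% and 42.1% G and C, and those of the other 8 genes 51.9% to 61.6%. The slope of log2 CPM on GC content, over all genes tested and relative to the mean library, ran from -0.23 to 0.34 per 10 percentage points among libraries, with ranges that overlapped between all conditions. The library with the highest slope of its condition had the highest Dbp at 1 Hz (62.4 CPM), 4 Hz (54.1 CPM), and 10 Hz (36.8 CPM) but not in control (44.8 CPM, with the highest at 51.7 CPM). It had the lowest Nr1d2 in control (70.5 CPM) and at 4 Hz (98.8 CPM) but not at 1 Hz (108 CPM, with the lowest at 94.5 CPM) or 10 Hz (89.8 CPM, with the lowest at 82.9 CPM). After each library was corrected for GC content, an analysis chosen after seeing the data, Dbp and Nr1d2 had r = 0.71 (rho = 0.66, permutation p = 0.001 and 0.00248, adjusted p = 0.0113, 0.71 without the 2 farthest libraries), with the opposite sign. Nr1d2 and Clock then had r = 0.43 (permutation p = 0.0631, adjusted p = 0.142, rho = 0.31, permutation p = 0.173). Dbp and Per2 kept r = 0.83 (permutation p = 2e-05, adjusted p = 0.0009, rho = 0.81, permutation p = 5e-05), whereas Dbp and Per1 had r = 0.55 (permutation p = 0.0123, adjusted p = 0.0502, rho = 0.53, permutation p = 0.0143). The pairs below an adjusted p of 0.05 were then 10 of 45, again without a share over pairs of all genes.

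**Figure D4:**
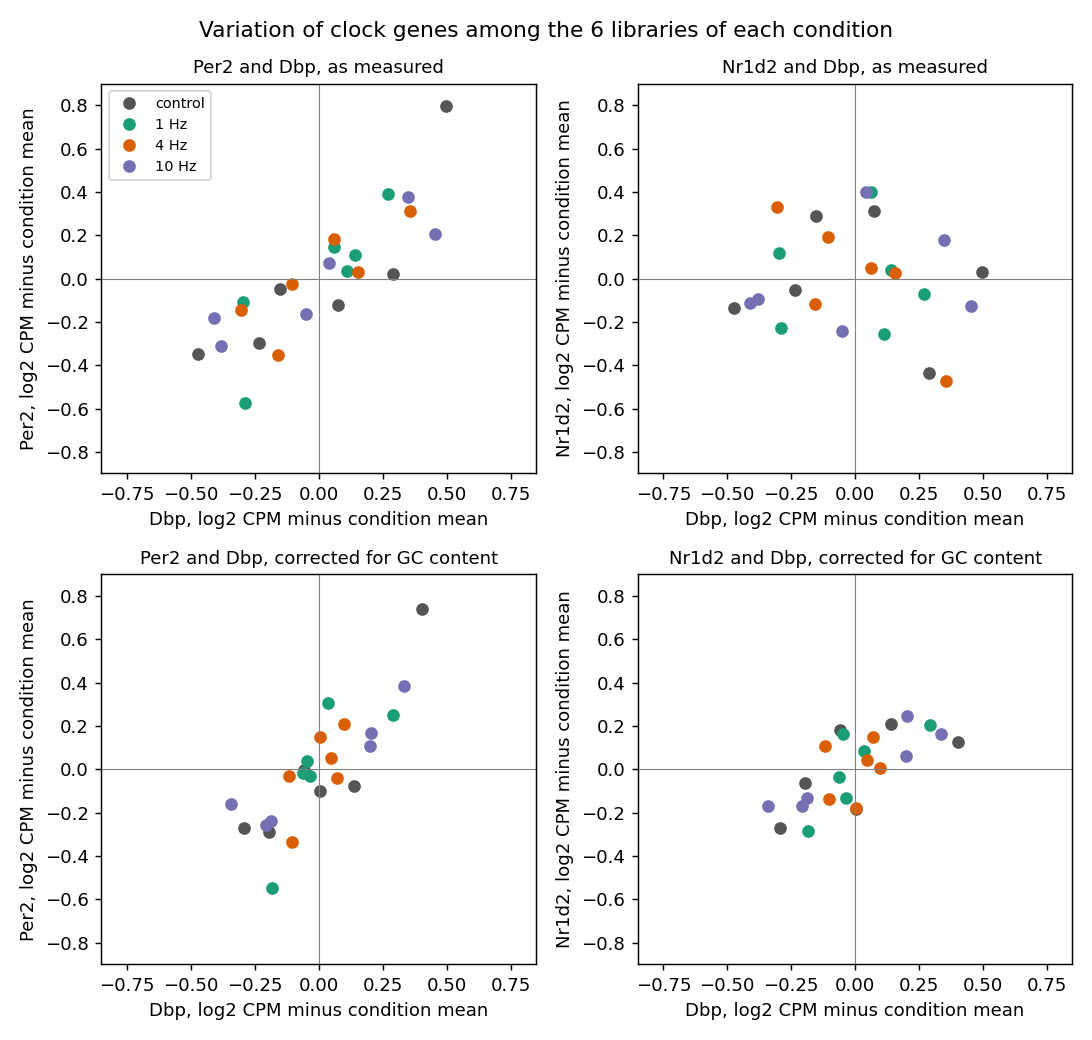
Log2 CPM minus the condition mean of Per2 (left) and Nr1d2 (right) against that of Dbp in 24 libraries, as measured (top) and corrected for GC content (bottom), colored by condition. Per2 follows Dbp in both rows (r = 0.84 and 0.83), and Nr1d2 follows Dbp in the lower row alone (r = -0.12 and 0.71).

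The same correction left Per2 counted at 1 Hz (log2 fold change 0.80 ± 0.16, SE, edgeR adjusted p = 0.000233) and at 4 Hz (0.50 ± 0.16, adjusted p = 0.00992), and Nr1d2 at 4 Hz (0.54 ± 0.10, adjusted p = 5.83e-05). Nr1d1 at 4 Hz passed the fold threshold (-0.52 ± 0.12, SE, edgeR adjusted p = 0.00134). Clock at 1 Hz was at 0.46 ± 0.07 (SE, edgeR adjusted p = 3.85e-05), still below the fold threshold. Between 10 Hz and 1 Hz, Nr1d1 was no longer counted (-0.49 ± 0.12, SE, edgeR adjusted p = 0.00218), nor was Per1 between 10 Hz and 4 Hz (-0.48 ± 0.11, adjusted p = 0.00234). The latter comparison still had 3 clock genes counted, all lower at 10 Hz, so another clock gene had gained a call.

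Genes outside the clock list whose expression was most like that of a member were found over the same 24 libraries, with condition means removed and among 9289 genes of at least 10 CPM. For Per2 these were Lpin1 (r = 0.88), Irf2bpl (r = 0.88), and Pik3ip1 (r = 0.86). For Nr1d1 they were Rab40c (r = 0.90), Foxk1 (r = 0.85), and Med26 (r = 0.85). For Dbp they were Eif4ebp1 (r = 0.93), Ulk1 (r = 0.92), and Acot2 (r = 0.92). These values were not corrected for GC content, the points share depth and base composition, and no test was made.

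A wider list of 25 clock genes, in 4 groups by role, was examined in the comparisons with control, and 24 were tested. At 1 Hz, 5 were higher and 2 lower, at 4 Hz 5 were higher and 2 lower, and at 10 Hz none was counted by edgeR or DESeq2. Of all genes tested, 18.3%, 20.1%, and 1.86% were counted in either direction. An unadjusted edgeR p below 0.05 was found at 10 Hz for 5 of the 24, and for 2750 of all 13318 genes tested. The median log2 fold change of the list was 0.25, 0.02, and -0.10, and -0.01 over all genes tested in each comparison. Among the activators and their direct regulators, Arntl, the partner of Clock, was at 13.2 ± 2.13 CPM in 6 control libraries (SD), 16.2 ± 2.21 CPM at 1 Hz, 10.6 ± 1.46 CPM at 4 Hz, and 11.8 ± 3.32 CPM at 10 Hz and was not counted in any of the 3 comparisons (edgeR adjusted p of 0.112 or above). Npas2, which can stand in for Clock, fell by 1.22 ± 0.42 at 1 Hz and by 1.93 ± 0.43 at 4 Hz on the log2 scale (SE, edgeR adjusted p = 0.0247 and 0.000975), from a low level of 2.30 CPM in control. Rora, which activates Arntl, rose by 0.64 ± 0.22 at 1 Hz (SE, edgeR adjusted p = 0.0242) and was not counted at 4 Hz.

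Timeless, placed in the list of other repressors, fell by 1.02 ± 0.35 at 1 Hz and by 1.33 ± 0.35 at 4 Hz on the log2 scale (SE, edgeR adjusted p = 0.0241 and 0.00393), from 1.60 CPM in control. It had 179 counts over the 24 libraries together. Without the filter on low counts, neither Timeless nor Npas2 was counted at 1 Hz (edgeR adjusted p = 0.114 and 0.052). Ciart, a repressor that is a direct clock target, had log2 fold changes of 0.24, 0.16, and -0.14 at 1, 4, and 10 Hz (edgeR adjusted p = 0.193, 0.406, and 0.624). Csnk1d, Csnk1e, and Gsk3b, kinases of PER and CRY, were not counted in any of the 3 comparisons. Among 6 clock output genes, Tcap, whose product caps titin in the sarcomere and which is clock-controlled in muscle, rose by 0.87 ± 0.24 at 1 Hz and 1.35 ± 0.24 at 4 Hz (SE, edgeR adjusted p = 0.00720 and 9.78e-05). Usp2, a deubiquitinase, rose by 0.66 ± 0.19 at both frequencies (SE, edgeR adjusted p = 0.00863 and 0.00681). Pdk4, which restrains glucose oxidation, rose by 0.61 ± 0.11 at 1 Hz (SE, edgeR adjusted p = 0.000123), and Nampt, of NAD synthesis, rose by 0.58 ± 0.12 at 4 Hz (SE, edgeR adjusted p = 0.000482). The other two output genes, Wee1, a cell cycle kinase, and Noct, the nocturnin gene, were not counted, and at 4 Hz their log2 fold changes were -0.44 ± 0.12 and -0.33 ± 0.10 (SE, edgeR adjusted p = 0.00462 and 0.00975), short of the fold threshold. With the small RNA share as a covariate, Npas2, Rora, Timeless, Tcap, Usp2, Pdk4, and Nampt were not counted at 1 or 4 Hz. Tcap rose where the sum of the myotube markers was higher, and the part of the latter in its rise was not tested.

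Genes that respond to the signals known to act on Per1 and Per2 were counted in both directions. The median log2 fold change of 6 genes of the cAMP and calcium response was -0.04, -0.12, and 0.05 at 1, 4, and 10 Hz. Of these, Nr4a3, a nuclear receptor, rose by 0.64 ± 0.16 at 1 Hz and 0.85 ± 0.16 at 4 Hz on the log2 scale (SE, edgeR adjusted p = 0.00286 and 0.000141). Fos, an immediate early gene, fell by 1.26 ± 0.25 at 1 Hz, by 2.26 ± 0.27 at 4 Hz, and by 1.01 ± 0.25 at 10 Hz (SE, edgeR adjusted p = 0.000473, 7.49e-07, and 0.0174). Dusp1, a phosphatase induced with it, fell by 1.46 ± 0.13 at 4 Hz and by 0.89 ± 0.12 at 10 Hz (SE, edgeR adjusted p = 2.52e-08 and 0.000311). The 4 glucocorticoid response genes tested had medians of 0.40, 0.12, and -0.13. Of these, Klf9 rose by 0.69 ± 0.13 and Sgk1 by 0.66 ± 0.11 at 1 Hz (SE, edgeR adjusted p = 0.000347 and 0.000104), whereas Sgk1 fell by 0.59 ± 0.11 at 4 Hz and by 0.69 ± 0.11 at 10 Hz (SE, edgeR adjusted p = 0.000222 and 0.000896). With the small RNA share as a covariate, Nr4a3, Fos, Klf9, and Sgk1 were not counted at 1 or 4 Hz, where Fos was at -0.26 and -1.25 (edgeR adjusted p = 0.858 and 0.0523) and Sgk1 at 0.58 and -0.67 (0.240 and 0.0550). Dusp1 at 4 Hz (-1.09, edgeR adjusted p = 0.00482) and Dusp1, Fos, and Sgk1 at 10 Hz were still counted.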

How the data were processed

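The authors selected poly(A) RNA, built directional libraries, sequenced 50-base read pairs on a Singular G4 instrument, and processed reads with the nf-core/rnaseq pipeline and Salmon against GRCm39 with an Ensembl annotation. Low-input samples, not named in the labels, were ribodepleted. The files deposited by the authors hold Salmon estimated counts (expected counts, not normalized, 6.62% to 10.6% of values per library not whole) and TPM. Groups and replicate numbers came from the sample titles. Estimated counts were rounded, filtered with filterByExpr by condition, scaled by TMM, and tested with the quasi-likelihood test of edgeR 4.0.16 (R 4.3.3) in 1 fit of 24 libraries, with Benjamini-Hochberg adjustment over 13318 genes. CPM use TMM-scaled totals, and the small RNA share uses unscaled totals. For correlations log2 CPM had a prior count of 2, and 100000 permutations were drawn. No 2 libraries of a condition were copies. Small RNA shares and library totals were compared by 2-sided exact permutation tests. The fit was checked on simulated data. Alternatives were DESeq2 size factors, total count scaling, no filter, DESeq2 1.42.0, fits of 12 libraries, a block for the replicate number, the small RNA share as a covariate, a call without the fold threshold, and the omission of single libraries. Correction for GC content (lowess, span 0.3) and the alternatives for correlations were added after seeing the data. Members and lists were chosen with earlier results of these data known. Named genes were the 10 members, list genes counted in at least 1 comparison with control, Arntl, Npas2, and Ciart, and the 3 genes most like Per2, Nr1d1, and Dbp, and some that met this rule are not reported here. Each sample was a separate well, and p-values measure the spread between wells.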

Additional observations from a re-analysis of the deposited data

Results flagged for a closer look

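In 2 of 40 groups of 6 libraries (10 clock genes in 4 conditions) the extreme library stood apart from the rest by Dixon's criterion, which chance alone gives in about 1 of 20 groups. Both came from control replicate 2. Its Per2 level was 40.8 CPM, the highest in control, with the next library at 23.8 CPM (gap over range 0.760). Its Cry1 level was 24.3 CPM, the lowest in control, with the next at 33.5 CPM (gap over range 0.642). The same library had the highest control values of Dbp (51.7 CPM), Nr1d1 (91.5 CPM), and Per1 (162 CPM).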

How the results depend on the processing

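With DESeq2 size factors, DESeq2, only the 12 libraries compared, the replicate block, and the GC correction, every count of clock genes and of the wider list stayed within 1.5 times its value in the report. Replicate numbers did not pair the samples (correlations of same-numbered samples between -0.18 and 0.36, and 0 to 2 of 6 samples per pair of conditions were most like their own number), and with the replicate block 1, 2, 0, 1, 4, and 3 clock genes were counted in the 6 comparisons, as without it. Without the filter 2 clock genes were counted at 1 Hz (Dbp at 0.51). At an adjusted p alone the counts of clock genes were 3, 4, and 7 (1 and 4 Hz against control and 10 Hz against 1 Hz), where 35.4%, 39.4%, and 36.3% of all genes tested differed. In the wider list, of which 24 genes were tested, the counts were 11, 13, and 2 at 1, 4, and 10 Hz. The shares over all genes tested were 35.4%, 39.4%, and 4.89%. Total count scaling moved the median of all genes at 4 Hz to -0.11 and the calls from 1396 higher and 1280 lower to 35.8% higher of 2836. It left 1 clock gene counted at 4 Hz, Nr1d1 (-0.60, edgeR adjusted p = 0.00489), with Per2 at 0.42 and Nr1d2 at 0.43.

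With the small RNA share as a covariate, the clock genes counted were 0 at 1 Hz, 0 at 4 Hz, 1 at 10 Hz (Dbp, -0.55, edgeR adjusted p = 0.0208), 0 for 10 Hz against 1 Hz, and 0 for 10 Hz against 4 Hz, and the wider list had 0 at 1 Hz and 1 at 4 Hz. The log2 fold change took the opposite sign at 1 Hz for Nr1d1 (-0.11), Nr1d2 (-0.057), Dbp (-0.11), Tef (-0.020), Timeless (0.030), Usp2 (-0.014), and Dusp1 (0.038), and at 4 Hz for Per1 (-0.16), Per2 (-0.11), Dbp (-0.39), Tef (-0.16), Usp2 (-0.0094), Pdk4 (-0.050), and Klf9 (-0.016). It did so at 10 Hz for Nr1d2 (-0.019), Clock (-0.021), Usp2 (-0.073), and Nr4a3 (-0.023), and between frequencies for Cry2 (0.071) and Nr1d2 (0.038) at 10 Hz against 1 Hz and Per3 (0.20) at 10 Hz against 4 Hz. Other changes of sign were of values near 0, namely Per3 at 1 Hz without the filter (0.0055), Per3 for 10 Hz against 4 Hz (0.032), Cry1 (-0.0022), Nr1d2 (-0.0023), and Clock (-0.013) at 10 Hz and Tef at 4 Hz (-0.088) by total count, and Cry2 for 10 Hz against 1 Hz (0.030), Tef at 4 Hz (-4e-04), and Clock at 10 Hz (-0.0054) after GC correction. That correction also turned the correlation of Dbp with Nr1d2 (0.71) and with Clock (0.55). The cause of these changes was not tested.

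Leaving out 1 library at a time gave 1 to 2, 1 to 3, 0 to 2, 1, 4, and 2 to 4 clock genes in the 6 comparisons (1, 4, and 10 Hz against control, 4 Hz against 1 Hz, 10 Hz against 1 Hz, 10 Hz against 4 Hz) and 5 to 7, 6 to 7, and 0 of the wider list. The 2 at 10 Hz were Dbp (-0.54) and Nr1d1 (-0.52), without control replicate 6. Besides control replicate 2, Dbp at 1 Hz was counted without control replicate 4 (0.54) and 1 Hz replicates 1 or 2 (0.53 for each). Nr1d1 at 4 Hz was counted without control replicates 3, 5, or 6 or 4 Hz replicates 1 or 2 (-0.59 to -0.51), and Nr1d2 for 10 Hz against 4 Hz without 4 Hz replicates 2 or 6 or 10 Hz replicates 5 or 6 (-0.58 to -0.52). Signs varied for Per2 at 10 Hz (-0.19 to 0.11), Per3 at 1 Hz (-0.092 to 0.034) and for 10 Hz against 4 Hz (-0.097 to 0.031), Cry1 at 10 Hz (-0.041 to 0.071), Cry2 at 1 Hz (-0.14 to 0.029), Nr1d1 for 10 Hz against 4 Hz (-0.011 to 0.15), Nr1d2 (-0.057 to 0.097) and Clock (-0.050 to 0.078) at 10 Hz, Tef at 4 Hz (-0.017 to 0.064), and, at 10 Hz, Usp2 (-0.062 to 0.20), Tcap (-0.050 to 0.30), and Nr4a3 (-0.050 to 0.14). In the wider list Npas2 at 1 Hz lost its call without control replicates 2 or 3 or 1 Hz replicates 3, 4, or 6, Rora without control replicates 4 or 6 or 1 Hz replicate 3, and Timeless without control replicate 1 or 1 Hz replicate 5. At 10 Hz Fos lost its call without control replicate 2 (edgeR adjusted p = 0.0617) and with only the 12 libraries compared (0.0615).

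The depth limits Per2 and Per3 most, with 82 and 71 counts in their shallowest libraries. No sample was taken at a second time of day, so phase and amplitude were not measured.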

Other observations

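The deposited TPM of a clock gene divided by its CPM varied between libraries. The 4 Hz libraries lay below control without overlap for Per1 (0.346 to 0.360 against 0.376 to 0.410), Per2 (0.218 to 0.237 against 0.240 to 0.672), Cry2 (0.325 to 0.357 against 0.360 to 0.413), and Nr1d1 (0.481 to 0.524 against 0.534 to 0.608), whereas 1 and 10 Hz overlapped control for all 10 genes. For Dbp, 4 Hz and control met at 1.14 (0.970 to 1.14 against 1.14 to 1.42). Over the 24 libraries it ran from 0.970 to 1.42 for Dbp, 0.235 to 0.324 for Per3, and 0.370 to 0.476 for Tef. Single libraries stood further apart. For Per2 it was 0.672 in control replicate 1 and 0.218 to 0.274 in the other 23 libraries, so that this library had the highest Per2 TPM of all 24 (14.5 TPM) at an ordinary level of 21.5 CPM. For Cry1 it was 0.762 in 10 Hz replicate 4 and 0.430 to 0.581 in the others. TPM divides by a transcript length estimated in each library, and no transcript-level values were analysed here. CPM rest on TMM-scaled totals and TPM do not. With total count scaling in place of TMM, the median gene at 4 Hz against control moved from -0.01 to -0.11 (log2). The share of all genes with a lower ratio at 4 Hz was not computed, so whether it is particular to these clock genes was not tested. The control mean of Per2 in TPM (7.80 ± 4.06, SD, n = 6) rests on that library, and the median is 5.77 TPM.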
